A study of Homo sapiens with 3 samples.

Results

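TP63, SOX2, KLF4, KLF5, GRHL2, GRHL3, TFAP2A, TFAP2C and OVOL1, 9 transcription factor genes of squamous epithelium, were examined for ETS1 binding in SCC25 cells, an established line from a squamous carcinoma of the tongue. The genes were listed by name, with earlier results of these data known, and make up 9 of the 20163 protein-coding genes of GENCODE release 44 on the hg19 (GRCh37) genome. A peak, a stretch of the genome enriched in the ETS1 precipitate over input, was counted for a gene when its midpoint lay in the gene body or within 100 kb of it. In this way 82 of the 26961 nuclear peaks were counted. The cells were untreated, and ETS1-bound chromatin was precipitated (ChIP-Seq) in 3 samples, of which 2 used the antibody C20 and 1 used 501A. The values used here are 1 consensus list of the peaks that recurred across all 3 samples by the irreproducible discovery rate (IDR) method. The list holds positions with no height, score or value per sample, so that no spread between replicates can be given, the antibodies cannot be compared, the depth behind a peak cannot be read from it, and expression of the 9 genes was not analysed here. Confidence intervals below are 95% Wilson intervals, which cover counting error only, and comparisons with all genes or all peaks are descriptions with no test.

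ETS1 belongs to the ETS family of transcription factors, which bind DNA through a winged helix-turn-helix domain at sites around a GGA core. The 9 genes encode factors that set the identity of stratified squamous epithelium: p63 maintains the basal layer, SOX2 acts in basal progenitors and is often gained together with TP63 in squamous carcinomas, KLF5 is a factor of proliferating cells, while KLF4, GRHL3 and OVOL1 act in differentiation and barrier formation. GRHL2 controls genes of cell junctions, and the AP-2 factors encoded by TFAP2A and TFAP2C act in early surface ectoderm and keratinocytes. TP63 has a promoter at its 5′ end, which gives the long TA forms with the N-terminal transactivation domain, and an internal promoter, which gives the short ΔN forms that prevail in basal keratinocytes.

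The sequences at the centres of 11 peaks are printed here. The list gives no point of highest signal, so which bases of a peak were bound is not known. Each is the central 200 bp of a peak on GRCh37, or the longest stretch of it that carries no annotated untranslated exon, printed 5′ to 3′ along the strand of the gene. Capitals mark hexamers around the ETS core, which are AGGAAG, its variant with a last A, AGGAAA, and the form with another flank, CCGGAA, or their reverse complements. A match is a description of the letters and not a measured contact.

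Of the 5 TP63 peaks, the 3 nearest to a start of the gene are shown, from chr3:189509978-189510177, chr3:189551860-189552059 and chr3:189586300-189586499, on the plus strand.
TP63, 2488 bp past the last short start: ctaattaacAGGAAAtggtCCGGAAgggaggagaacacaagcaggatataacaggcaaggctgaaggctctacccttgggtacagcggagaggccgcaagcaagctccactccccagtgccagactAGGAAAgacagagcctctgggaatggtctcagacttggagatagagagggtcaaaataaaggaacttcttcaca
TP63, 44.4 kb past it: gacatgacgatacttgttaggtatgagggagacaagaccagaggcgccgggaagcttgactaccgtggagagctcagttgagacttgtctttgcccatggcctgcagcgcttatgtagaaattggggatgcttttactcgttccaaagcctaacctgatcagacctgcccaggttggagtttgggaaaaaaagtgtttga
TP63, 78.8 kb past it: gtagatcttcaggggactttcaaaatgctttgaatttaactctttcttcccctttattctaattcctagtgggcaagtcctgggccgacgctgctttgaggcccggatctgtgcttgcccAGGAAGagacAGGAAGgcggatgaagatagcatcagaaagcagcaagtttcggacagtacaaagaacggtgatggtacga

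For KLF4, KLF5, TFAP2A, TFAP2C and OVOL1, the promoter peak nearest to a start is shown. The stretches are chr9:110250944-110251143 on the minus strand, chr13:73633485-73633684 on the plus strand, chr6:10412625-10412682 on the minus strand, chr20:55205091-55205289 on the plus strand and chr11:65554878-65555077 on the plus strand.
KLF4: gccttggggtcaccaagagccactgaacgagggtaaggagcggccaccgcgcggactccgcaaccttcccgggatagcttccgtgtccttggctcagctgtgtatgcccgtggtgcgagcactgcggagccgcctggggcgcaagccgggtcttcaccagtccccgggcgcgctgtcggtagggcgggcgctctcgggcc
KLF5: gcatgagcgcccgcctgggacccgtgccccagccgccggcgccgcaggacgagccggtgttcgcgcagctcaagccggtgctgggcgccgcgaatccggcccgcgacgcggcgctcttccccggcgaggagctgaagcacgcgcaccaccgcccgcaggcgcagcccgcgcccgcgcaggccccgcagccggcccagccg
TFAP2A: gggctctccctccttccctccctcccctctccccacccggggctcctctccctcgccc
TFAP2C: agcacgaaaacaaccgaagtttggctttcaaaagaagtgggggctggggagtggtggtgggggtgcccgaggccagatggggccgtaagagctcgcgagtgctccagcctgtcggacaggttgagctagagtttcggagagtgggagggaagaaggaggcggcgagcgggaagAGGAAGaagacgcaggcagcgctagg
OVOL1: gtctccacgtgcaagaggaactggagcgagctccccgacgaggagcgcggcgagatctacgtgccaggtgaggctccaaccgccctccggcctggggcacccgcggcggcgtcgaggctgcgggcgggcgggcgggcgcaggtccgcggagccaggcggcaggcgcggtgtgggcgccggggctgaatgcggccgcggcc
The TFAP2C stretch held 1 hexamer and the other 4 held none. All 4 of these peaks held at least 1 in their whole length, as did 93.0% of all nuclear peaks.

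A further 3 sequences, chosen after their values were seen, belong to a SOX2 peak and a pair of GRHL3 peaks beside the start. They lie on the plus strand at chr3:181416198-181416397, chr1:24643512-24643711 and chr1:24649323-24649522.
SOX2, 13415 bp before the start: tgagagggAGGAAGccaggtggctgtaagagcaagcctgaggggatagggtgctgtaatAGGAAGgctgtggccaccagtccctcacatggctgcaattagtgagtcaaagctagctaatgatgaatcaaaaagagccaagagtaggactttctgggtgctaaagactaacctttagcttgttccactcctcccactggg
GRHL3, 2235 bp before the canonical start: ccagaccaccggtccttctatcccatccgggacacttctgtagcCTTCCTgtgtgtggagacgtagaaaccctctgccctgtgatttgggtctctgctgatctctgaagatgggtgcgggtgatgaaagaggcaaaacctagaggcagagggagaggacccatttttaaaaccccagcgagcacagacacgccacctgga
GRHL3, 3576 bp past the canonical start: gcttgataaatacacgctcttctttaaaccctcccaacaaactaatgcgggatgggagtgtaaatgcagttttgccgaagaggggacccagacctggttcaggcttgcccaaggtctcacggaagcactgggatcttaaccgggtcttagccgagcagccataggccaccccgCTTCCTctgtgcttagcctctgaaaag

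All 9 genes had at least 1 ETS1 peak in the window, as did 87.5% of all protein-coding genes, and all 9 had at least 1 in the gene body, against a background of 53.4%. A peak with its midpoint within 500 bp of any annotated transcription start site (TSS), called a promoter peak here, was found at 7 of the 9 genes, and TP63 and SOX2 had none. Among all protein-coding genes 53.1% had a promoter peak. At the canonical start, that of the annotation's reference transcript, 5 of 9 genes (KLF5, GRHL2, GRHL3, TFAP2A and OVOL1) had a promoter peak, against 46.1%. Each of the 9 genes held the nearest protein-coding TSS of at least 1 peak, against 61.0% of genes. With 9 genes, the interval of each share is wide: the 7 of 9 with a promoter peak give 77.8% with an interval of 45.3 to 93.7%, which contains the background.

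The number of peaks per window ran from 3 to 28. GRHL3 had 28 peaks, TFAP2A 14 and OVOL1 11, while GRHL2 and TFAP2C had 7 each, TP63 5, KLF4 4, and SOX2 and KLF5 3 each. The median was 7 over the 9 genes and 4 over all protein-coding genes, whose quartiles were 2 and 8. GRHL3 thus had more peaks than 99.9% of genes and TFAP2A more than 92.7%, whereas 53% of genes had fewer peaks than TP63 and 34% fewer than SOX2 or KLF5. Without replicate values, genes with neighbouring counts cannot be ordered beyond error. Windows differ in length with the gene body, from 203 kb at SOX2 to 466 kb at TP63. Per 100 kb of window, GRHL3 had 7.67 peaks, TFAP2A 6.18, OVOL1 5.23, TFAP2C 3.33, KLF4 1.95, GRHL2 1.86, SOX2 1.48, KLF5 1.35 and TP63 1.07, with a median of 1.95 against 1.6 over all genes. TP63 was therefore the lowest of the 9 on this scale, below the median of all genes.

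**Figure D1:**
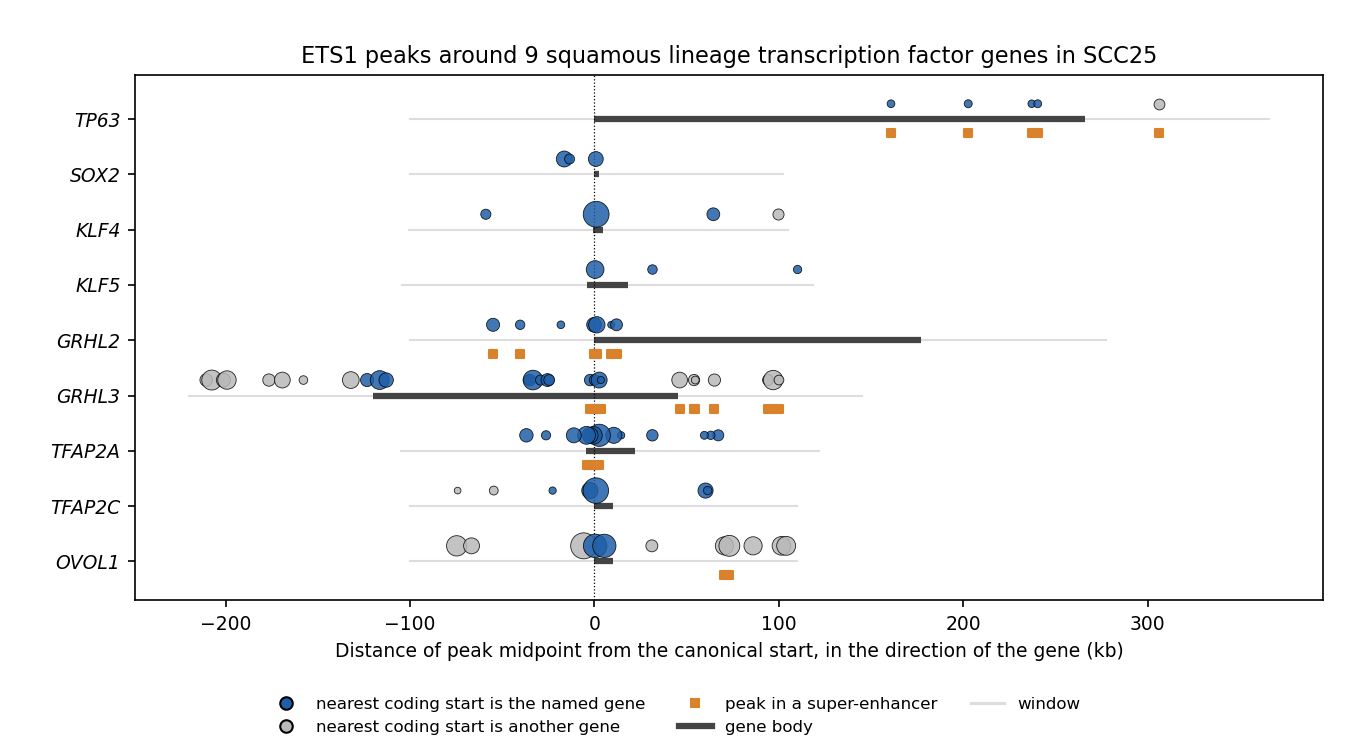
Peaks around the 9 genes by distance of the midpoint from the canonical start (kb, along the gene), with circle area in proportion to peak width, dark bars for gene bodies, grey lines for windows and squares below for peaks in super-enhancers. Peaks sit over or beside the canonical start at every gene except TP63, whose canonical start is that of a long form. The 5 TP63 peaks lie 161 to 306 kb past it, and the first of them lies 2.49 kb from a short start. Blue circles mark the 54 peaks whose nearest protein-coding start is that of the named gene.

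A peak in the window need not be nearest to the gene. Of the 82 peaks, 54 (65.9%, interval 55.1 to 75.2%) had the start of the named gene as their nearest protein-coding TSS, 32 lay in the gene body and 12 were promoter peaks of the gene. Noncoding genes were left out of this measure, here and below, and some of these peaks lay nearer to a noncoding start. Examples are a TFAP2A peak with its midpoint on a start of TFAP2A-AS2 and a GRHL3 peak 96 bp from a start of GRHL3-AS1. Among protein-coding starts, all 14 peaks of TFAP2A, 7 of GRHL2, 3 of SOX2 and 3 of KLF5 were nearest to the gene itself. The same held for 4 of 5 at TP63, 3 of 4 at KLF4 and 5 of 7 at TFAP2C. GRHL3 and OVOL1 differed from these, with 13 of 28 and 2 of 11. In the GRHL3 window, 15 peaks were nearest to another gene, 7 to STPG1, 4 to MYOM3, 3 to IL22RA1 and 1 to IFNLR1. The OVOL1 window overlaps 11 other protein-coding genes. Of these, CFL1, the gene of the actin-severing protein cofilin, was nearest to 2 peaks. The other 7 were each nearest to a different gene (KAT5, RNASEH2C, AP5B1, MUS81, EFEMP2, FIBP and CCDC85B), at 2 to 440 bp from its start. By peaks nearest to the gene, the order at the low end therefore changed, with OVOL1 at 2 below SOX2, KLF4 and KLF5 at 3 each.

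**Figure D2:**
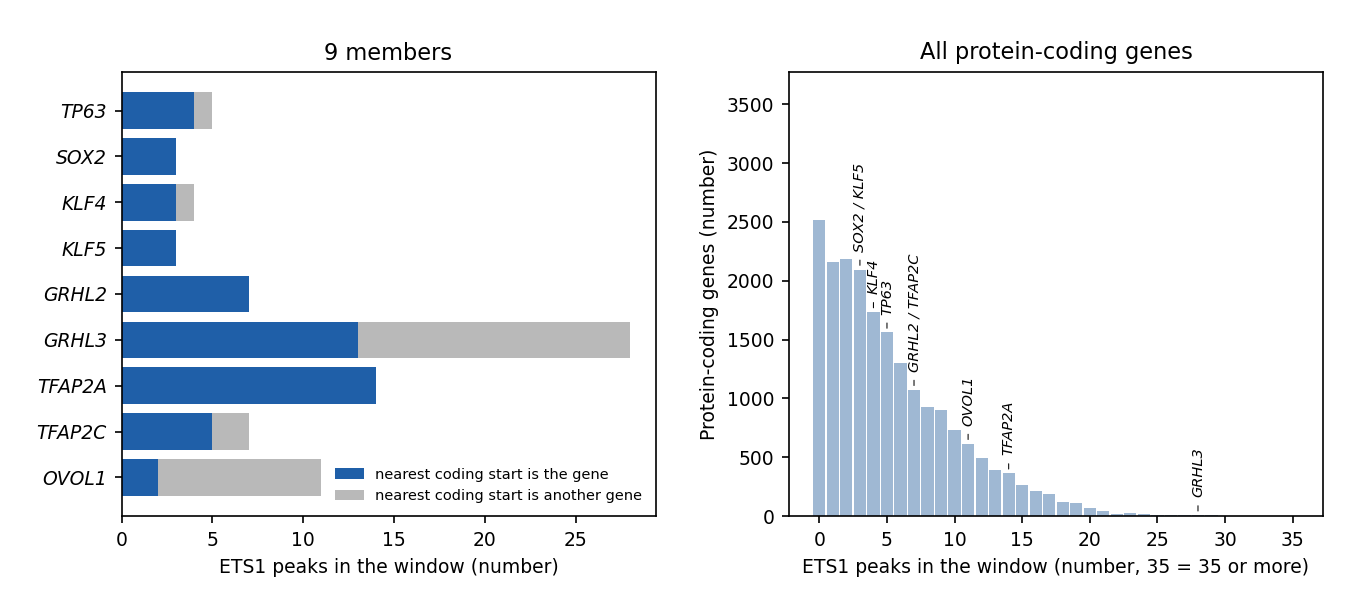
Left, peaks in the window of each of the 9 genes (number), split by whether the nearest coding start is that of the gene; right, the number of peaks per window over all 20163 protein-coding genes, with the 9 genes marked at their counts. GRHL3 at 28 and TFAP2A at 14 lie in the upper tail, and the other genes between 3 and 11.

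TP63 (chr3:189349178-189615065, plus strand) showed ETS1 peaks only at the side of its internal promoter. The annotation gives 6 long transcripts starting at 189349178 to 189349305 and 8 short ones starting at 189507448 to 189507590. No peak lay within 500 bp of any of these starts. No peak lay in the 158 kb between the last long and the first short start either, and all 5 peaks were nearer to the short starts, at 2.49, 44.4, 78.8, 82.0 and 148 kb from them. From the long starts the same peaks were 161 to 306 kb away. The long starts lay in a stretch of 399 kb without a peak, which began 238 kb before the canonical start. It was longer than 95.2% of the 26937 stretches between neighbouring peaks in the genome (median 25.8 kb). Each stretch counts once in this share, whereas a given position falls in a long stretch more often than in a short one. The share therefore does not give how unusual such a stretch is for a position in the genome.

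The TP63 peak nearest to a start, at chr3:189509907-189510250, lay in intron 3 of the canonical long transcript, 2317 bp from its edge to the last short start. Its centre, printed above, held AGGAAA at base 10, CCGGAA at base 20 and AGGAAA at base 127, counted from 1 at the 5′ end of the sequence. The next peak, at chr3:189551778-189552143, lay in intron 4, 4249 bp from the start of the microRNA gene MIR944, and its centre held none of the hexamers. The peak at chr3:189586236-189586565 lay over exon 8, with AGGAAG at bases 121 and 131. The fourth, at chr3:189589458-189589814, lay in intron 9, and the fifth, at chr3:189655300-189655976, lay downstream of the gene, 26272 bp from the start of P3H2, which encodes a collagen prolyl hydroxylase. The TP63 peaks were narrow, at 344, 366, 330, 357 and 677 bp, against a median width of 969 bp over all nuclear peaks. Their widths stood between the 3.91 and the 30.0 percentile of all peaks.

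All 5 TP63 peaks fell in the same super-enhancer (SE), a long stretch of clustered enhancers that the authors called from the acetylated histone mark H3K27Ac in SCC25 cells. This SE begins before the short starts and runs past the 3′ end of the gene, so it covers the internal promoter and not the 5′ promoter. It held 2.84 peaks per 100 kb, whereas the median over the 965 SEs was 7.63, and 12.2% of SEs had a lower density. TP63 thus combined an SE over the gene body with no promoter peak, as did 298 of the 1342 genes (22.2%) whose body met an SE.

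**Figure D3:**
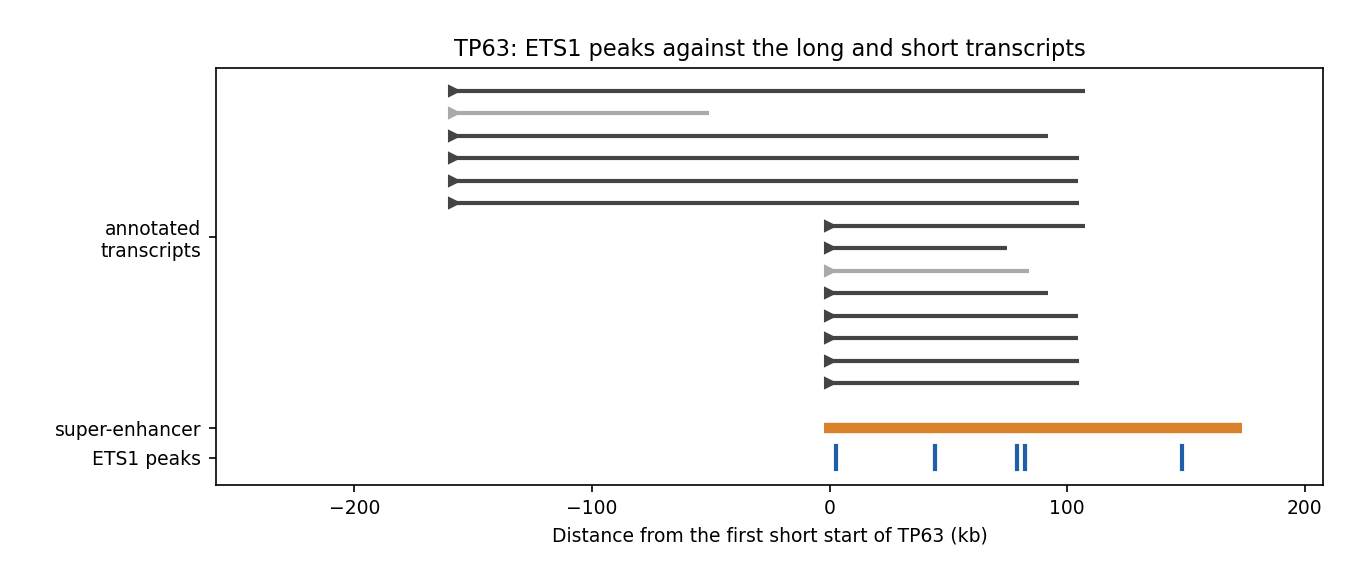
Annotated TP63 transcripts (arrowheads at starts, grey for transcripts with a retained intron), the super-enhancer and the 5 ETS1 peaks, by distance from the first short start (kb). The peaks and the super-enhancer lie on the side of the short starts, and no peak lies near the long starts 158 kb away.

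SOX2 (chr3:181429713-181432224, plus strand), a gene with 1 exon and 1 annotated start inside the long noncoding gene SOX2-OT, had 3 peaks. The peak at chr3:181429908-181431177, 1270 bp wide, lay in the exon with its midpoint 829 bp past the start, and its edge was 195 bp from the start, so it did not cover the TSS. The other two lay upstream with midpoints 16283 and 13415 bp before the start. The nearer of them was 134 bp from an annotated start of SOX2-OT and held AGGAAG at bases 9 and 60 of the sequence printed above. No SOX2 peak lay in an SE.

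KLF4 (chr9:110247133-110252763, minus strand) had 1 peak over the gene and 3 farther away. The peak over the gene, chr9:110249126-110252962, was 3837 bp wide, at the 99th percentile of width, and covered all 6 annotated starts. The other three had midpoints 58.1 kb before and 63.2 and 98.6 kb past the nearest start of KLF4, and the last of these was nearer to RAD23B, a gene of DNA repair. KLF5 (chr13:73629114-73651679, plus strand) likewise had 1 wide peak at its start, chr13:73632681-73634490, of 1810 bp. It covered 1 of 4 starts, the canonical one, with its midpoint 442 bp past it. The other KLF5 peaks were 520 and 400 bp wide and lay 31.5 and 110 kb past the canonical start. Neither Krüppel-like gene had a peak in an SE.

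TFAP2A (chr6:10393419-10419892, minus strand) had 14 peaks, and 5 of them covered at least 1 start. Of its 18 distinct starts, which spread over 15.1 kb, 17 lay under a peak. The widest peak, chr6:10411170-10413997, was 2828 bp wide and covered 6 starts, with 41 bp between its midpoint and the closest start. The peak at the canonical start, chr6:10414880-10416669, had its midpoint 467 bp before that start. Of the 14 peaks, 5 lay in 1 SE over the 5′ part of the gene, and no other protein-coding start was nearest to any of them. TFAP2C (chr20:55204362-55214339, plus strand) had 7 peaks, 5 of them nearest to the gene. A peak of 3745 bp, chr20:55203319-55207063, covered both starts, with its midpoint 99 bp from the nearer. A pair of peaks lay about 60 kb downstream, at 59.4 and 60.5 kb past the nearest start. Unlike TFAP2A, TFAP2C had no peak in an SE.

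GRHL3 (chr1:24526048-24690972, plus strand) had 13 peaks nearest to the gene, in 3 groups. A group of 3 lay around the most upstream start at 24526048, used by 1 annotated transcript, with midpoints 3423 bp before and 3426 and 6924 bp past it. A group of 6 lay 24.5 to 35.8 kb before the canonical start, outside any SE, the widest of them 2225 bp. The remaining 4 lay within 3.58 kb of the canonical start and all fell in 1 SE, which ran on past the gene and held 8 peaks of the window. Of these, the peak at chr1:24645723-24646377 had its midpoint 203 bp past the canonical start and 6 bp from the nearest start, and covered 5 of the 10 distinct starts. The peak at chr1:24649277-24649569, 293 bp wide, covered another start. The long gene body of 165 kb is due to the upstream transcript, and it brings MYOM3, IL22RA1 and IFNLR1 into the window. With 4 further peaks in that SE and 3 in another on the STPG1 side, 11 of the 28 peaks lay in SEs.

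OVOL1 (chr11:65554534-65564685, plus strand) had only 2 peaks nearest to the gene, but both were wide. They spanned chr11:65553394-65556562 and chr11:65558410-65561528, or 3169 and 3119 bp, at the 97.8th and 97.7th percentiles of width, and each covered 1 of the 3 annotated starts. Their midpoints were 444 bp and 5435 bp past the canonical start. The widest peak of the window, of 3889 bp at 318 bp from the start of AP5B1, lay 5769 bp before the OVOL1 start. The 2 peaks of the window in an SE were nearest to CFL1 and MUS81 and not to OVOL1.

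GRHL2 (chr8:102504667-102681954, plus strand) had 7 peaks, all nearest to the gene and 6 of them in 2 SEs. A peak of 1234 bp with its midpoint 149 bp before the start covered 3 of the 5 distinct starts, and a peak of 1543 bp followed it in intron 1. A further 2 lay in intron 1 at 9.16 and 12.1 kb past the start, and 3 lay 18.1, 40.2 and 54.9 kb upstream. The remaining 165 kb of the gene body held none. GRHL2, GRHL3, TFAP2A and TP63 were the 4 of 9 genes whose body met an SE, against 6.66% of all protein-coding genes, and 3 of these 4 bodies are longer than 100 kb, and the part of length in this count was not tested.

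Over the 9 genes, 37 of 57 distinct starts (64.9%) lay under an ETS1 peak, against 39.7% over all protein-coding genes. TFAP2A alone gave 17 of the 37, and without it the share was 20 of 39 (51.3%). The 13 peaks that covered a start had a median width of 1810 bp (293 to 3837) and a median observed over expected CpG ratio of 0.710, whereas the 41 others nearest to the genes had 678 bp (279 to 2225) and 0.270. All 5 peaks above the 95th percentile of width, 2538 bp, covered a start, at KLF4, TFAP2A, TFAP2C and OVOL1. A wide peak covers a start more often by construction, so the difference in width is partly set by the grouping. The 54 peaks nearest to the genes had a median width of 791 bp and a median CpG ratio of 0.372, against 969 bp and 0.391 over all nuclear peaks. Of these 54, 17 (31.5%, interval 20.7 to 44.7%) lay within 500 bp of any annotated TSS, against 43.3% of all nuclear peaks, and 31 (57.4%, 44.2 to 69.7%) lay over 1500 bp from any TSS, against 48.2%. Both intervals contain the value over all peaks.

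**Figure D4:**
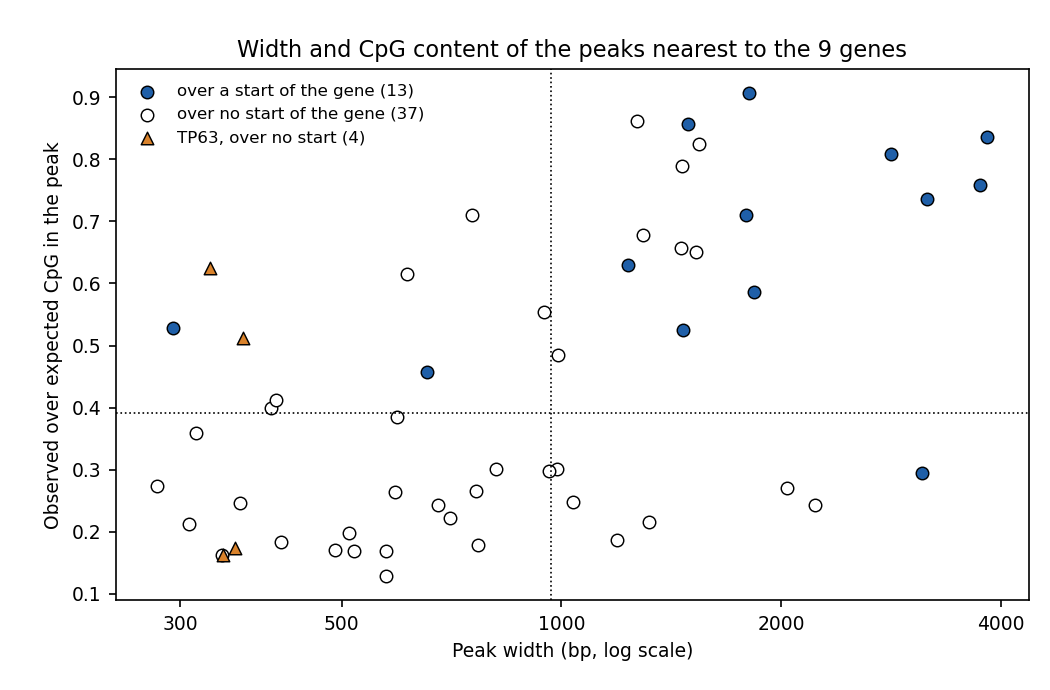
Width (bp, log scale) and observed over expected CpG ratio of the 54 peaks nearest to the 9 genes, filled where the peak covers a start of the gene, with dotted lines at the medians of all nuclear peaks, 969 bp and 0.391. Filled points lie mostly to the upper right, and the 4 TP63 peaks are all narrower than 400 bp. A wide peak covers a start more often by construction.

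In SEs lay 29 of the 82 peaks (35.4%, interval 25.9 to 46.2%), against 17.1% of all nuclear peaks. These 29 fell in 7 SEs and are not independent of each other. GRHL3 contributed 11, GRHL2 6, TP63 and TFAP2A 5 each and OVOL1 2, while SOX2, KLF4, KLF5 and TFAP2C had none. Of the 54 peaks nearest to the genes, 19 (35.2%, 23.8 to 48.5%) lay in SEs, 6 of 7 at GRHL2, 5 of 14 at TFAP2A, 4 of 13 at GRHL3 and 4 of 4 at TP63, and none at the other 5 genes.

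At least 1 of the 3 ETS hexamers named above, on either strand, lay in the central 200 bp of 40 of the 82 peaks (48.8%, interval 38.3 to 59.4%), against 51.4% of all nuclear peaks. Of the 54 nearest to the genes, 28 (51.9%) held one. All 5 TFAP2C peaks did, as did 7 of 13 at GRHL3, 6 of 14 at TFAP2A, 4 of 7 at GRHL2, 2 of 4 at TP63, 2 of 3 at SOX2 and 1 of 3 at KLF4 and KLF5, whereas neither OVOL1 peak had one. In their whole length, 52 of the 54 peaks (96.3%) held a hexamer, against 93.0% of all nuclear peaks. CCGGAA alone was in 5.56% of the 54 peaks and in 11.8% of all peaks.

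Motifs of AP-2, Krüppel-like, SOX and grainyhead factors, which several of these genes encode, and of AP-1 were searched in the same 200 bp on both strands. The AP-2 motif GCCNNNGGC lay in 20 of the 54 peaks (37%, interval 25.4 to 50.4%), against 19.6% of all nuclear peaks. In 600 bp the shares were 50.0% (37.1 to 62.9%) and 41.8%, so that the interval then contained the value over all peaks. The CACCC box CCACCC, bound by Krüppel-like factors, was in 31.5% against 29.2%. The SOX motif ACAATG was in 3.70% against 5.27%, and the grainyhead motif AACCNGTT in none of the 54, which allows up to 6.64% by the interval, against 1.01%. The AP-1 motif TGANTCA, which often lies beside ETS sites in epithelial enhancers, was in 3 of the 54 (5.56%, 1.91 to 15.1%), against 15.1%, and in 600 bp in 33.3% against 30.9%.

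**Figure D5:**
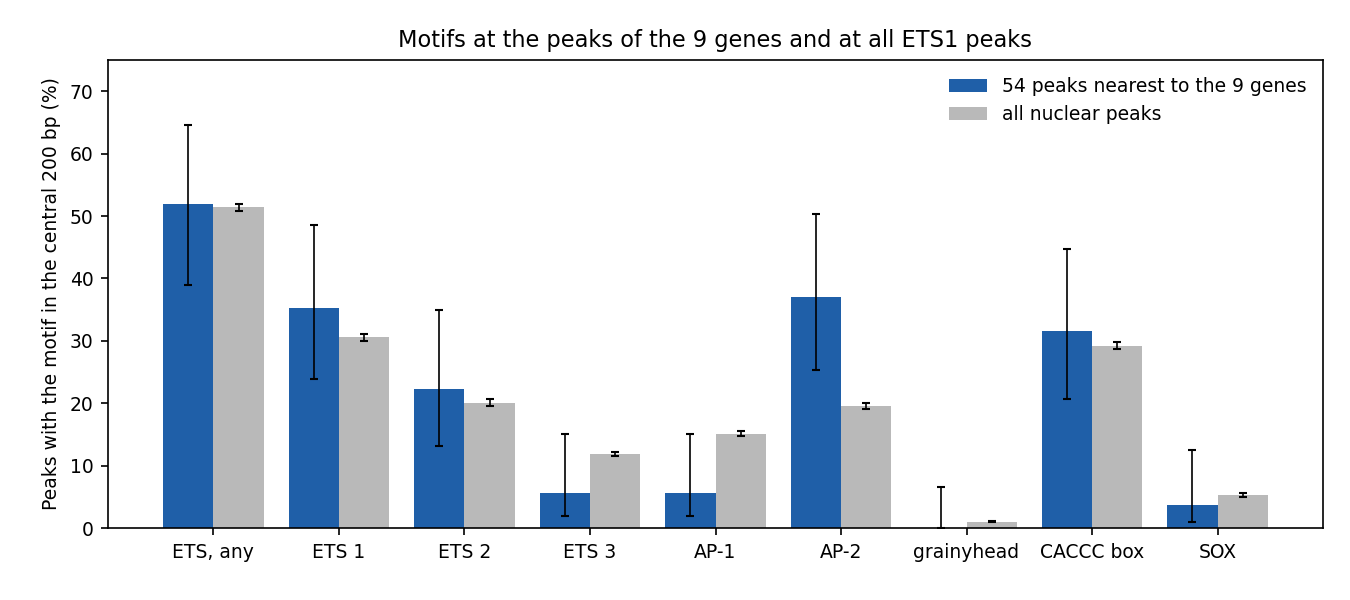
Share of peaks with each motif in the central 200 bp (%), for the 54 peaks nearest to the 9 genes and for all 26961 nuclear peaks, with 95% Wilson intervals as bars. ETS 1 is the hexamer AGGAAG, ETS 2 its variant AGGAAA and ETS 3 the form CCGGAA, and the AP-2 share of 37% against 19.6% is the widest gap between the bars.

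The same counts were made for 27 other regulators, 16 paralogues of the 9 genes and 11 further transcription factors of stratified epithelium. A peak lay in the window of 26 of the 27, against 87.5% of all protein-coding genes, and SOX21, a repressor of the SOX family, was the exception. A promoter peak was found at 10 of the 11 further factors but at 4 of the 16 paralogues (OVOL2, KLF2, KLF6 and KLF10). The 9 genes had 7 of 9, and the share over all protein-coding genes was 53.1%. The median number of peaks per window was 8 for the further factors and 4.5 for the paralogues. By number, RUNX1, a Runt-domain factor, had the most with 23, 18 of them in its body. It was followed by CEBPB, which acts in keratinocyte differentiation, with 14 and TP73 with 13. The RUNX1 window is long, as its body runs from 36160098 to 37376965 on chromosome 21. Per 100 kb of window RUNX1 had 1.62 peaks, near the median of 1.6 over all genes, whereas CEBPB had 6.94 and TP73 4.58. TP73, the paralogue that like TP63 has an internal promoter, had 7 peaks in its body and an SE over it but no promoter peak.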

How the data were processed

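ETS1 ChIP-Seq was performed on 3 samples of SCC25 cells. Per the study's methods, the authors mapped reads to hg19 with Bowtie (version 1.1.1 in the submitters' processing notes), called peaks with MACS2 against merged input, merged reads with SAMtools 1.3 and kept peaks by IDR. The deposited list holds positions only (other: start and end of each consensus peak), and 9 mitochondrial peaks of its 26970 were left out. Positions were made 1-based and joined to GENCODE release 44 on GRCh37 in Python 3.11.15 with pandas 2.3.3, numpy 2.4.6 and pysam 0.24.0. SEs are the intervals called by the authors. All 9 genes were described, with the peak nearest to a start and the widest peak of each. Of the 27 other regulators, the 3 with most peaks and those with none were named, and other names were chosen after their values were seen. The genes and lists were chosen with earlier results of these data known. Of the 27 regulators 1 gene, and 1 motif searched with the others, are not reported here, although totals over the list count that gene. No test was made. The counting code was tested on simulated data. Alternatives were other windows, promoter limits, overlap rules, parts of the list, peak widths and motif windows.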

Additional observations from a re-analysis of the deposited data

How the results depend on the processing

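The number of genes with a peak stayed at 8 or 9 of 9 under all window, overlap, list and width settings. Over all protein-coding genes the share was 53.4 to 87.5% under the same settings. Genes with a promoter peak numbered 5 to 8, against 46.1 to 58.1% of all genes. The exception was the first 13485 peaks of the list, with 4 (KLF4, GRHL2, GRHL3 and TFAP2A), where the share of all genes also fell, to 34.8%. What the order of the list stands for is not given in the sources used here. The 82 peaks in the windows fell to 32 in the gene body alone, 41 within 10 kb, 42 in the first 13485 peaks, 39 at or above the median width and 54 nearest to the genes, each by construction. SOX2 had no peak in the first 13485, and TP63 none at or above the median width. The 5 TP63 peaks nearer to the short starts became 1 within 10 kb and 3 in the first 13485 peaks, with 0 at the long starts each time. The share of peaks with an ETS hexamer was 89.0% in 600 bp, 96.3% in the whole peak and 6.10% for CCGGAA alone, against 86.2, 93.0 and 11.8% of all peaks. The share in SEs was 35.4 to 42.9%, against 17.1 to 19.4% of all peaks. The regulators with a peak numbered 22 to 26 of 27, under settings where 70.6 to 87.5% of all genes had one. No paired analysis was possible because the samples are pooled in 1 list, and no sample could be left out for the same reason. The list carries no depth or signal, so a gene without a promoter peak had none in this list, which does not show that ETS1 is absent there.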

Other observations

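Counted with no limit of distance, 18 peaks in the genome had a TFAP2A start as their nearest protein-coding TSS, 13 a GRHL3 start, 10 each a KLF4 and a TFAP2C start, 7 a GRHL2 start, 6 a SOX2 start, 4 a TP63 start, 3 a KLF5 start and 2 an OVOL1 start. The median over all protein-coding genes was 1. KLF4 thus had 7 such peaks outside its window and TFAP2C 5, while every peak nearest to GRHL2, GRHL3, KLF5, TP63 and OVOL1 lay inside the window. The count at KLF4 was higher than at 98.8% of genes, although the 4 peaks in its window were more than at 44.4% of genes. No other protein-coding gene overlaps the KLF4 or SOX2 window, whereas 11 overlap that of OVOL1. The part of neighbouring gene density in these counts was not tested.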
